A study of Mus musculus with 16 samples.

Results

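The T cell receptor complex and its coreceptors were followed as 10 genes of the 53465 in the count table: the receptor constant chains Trac, Trbc1 and Trbc2, the CD3 chains Cd3d, Cd3e and Cd3g, the zeta chain Cd247, and the coreceptors Cd8a, Cd8b1 and Cd4. They were matched by symbol, all 10 were found, and all 10 passed the filter on low counts. Bulk RNA-seq had been made from 16 subcutaneous MC38 tumors, each grown from injected cells in the right flank of a female C57BL/6 mouse aged 6 to 8 weeks. MC38 is a mouse colon adenocarcinoma line, labelled here as colorectal carcinoma. Tumors measured 150 to 250 mm3 when mice were randomized on day 16, and 200 µg of control IgG (8 mice) or of aPD-1, an antibody against the checkpoint receptor PD-1 (8 mice), was given on days 16 and 20. Tumors were harvested on day 21, and RNA was taken from 100 µm sections of the fresh frozen piece of each tumor.

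Of the aPD-1 tumors, 6 were non-responders (NR, replicates 9 to 14) and 2 were responders (R, replicates 15 and 16). The study set that status from CD8 immunohistochemistry of these tumors. Cd8a and Cd8b1 in responders against the other tumors are therefore not independent of how the groups were defined. The CD3, zeta and receptor constant genes are also expressed by CD8 T cells, so they are not fully independent of that definition either. Treatment was randomized, whereas response status was not.

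The alpha and beta chains of the receptor recognize peptide bound to major histocompatibility molecules but have almost no signaling tail of their own. Signal is passed on by the CD3 gamma, delta and epsilon chains and the zeta chain, whose cytoplasmic motifs are phosphorylated by Lck and then bind Zap70. CD4 and CD8 bind class II and class I molecules and bring Lck to the receptor, and they mark the helper and cytotoxic lineages of mature T cells. CD8 on most cytotoxic T cells pairs an alpha with a beta chain, and the alpha chain is also made by a subset of dendritic cells.

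Total counts ranged from 26603477 to 39948874 per tumor. Levels are given as CPM, counts scaled to a common library size with TMM factors, and tumors were numbered 1 to 16 across the groups. Mitochondrial genes took 7.60% of the counts in IgG replicate 1, 6.00% in NR replicate 9 and 5.74% in NR replicate 14, against 2.52% to 3.25% in the other 13 tumors. In IgG replicate 3 the gene CT010467.1 alone took 20.4% of the counts, against at most 0.49% in any other tumor. Of the epithelial genes that would mark a colorectal carcinoma, Cdx2 had 0 counts in 15 of 16 tumors and Vil1 reached at most 0.283 CPM, both singled out after their values were seen. Cdh1 lay between 3.75 and 9.79 CPM in all tumors, and Epcam, Krt8, Krt18 and Krt19 lay between 5.32 and 33.3 CPM in the responders and at or under 1.81 CPM elsewhere. Krt20 was at 0.71 CPM in responder 15 and 0.197 CPM in responder 16, against at most 0.366 CPM elsewhere. The responders differed from all other tumors in genes of other cell types as well. The summed level of 8 B cell genes was 1245 CPM in responder 15 and 310.4 CPM in responder 16, against at most 7.98 CPM elsewhere, and 5 lymph node genes, of stroma and high endothelial venules, summed to 375.7 and 115.8 CPM, against at most 4.05 CPM elsewhere. In bulk tissue, more T cells and more of a transcript per T cell cannot be told apart, and this holds for every level below.

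Trbc1 and Trbc2 are near copies, which bears on how reads were divided between them. In GRCm38, Trbc1 lies on the plus strand at chr6:41538218-41539881 and Trbc2 on the same strand at chr6:41546730-41548352, with their starts 8512 bases apart. Of their 518 coding bases, 23 differ and 95.6% are identical, and 22 of the differences fall in the last 143 bases. Those coding bases were joined across introns from chr6:41539114-41539662 and chr6:41547610-41548178. They are shown 5′ to 3′ because they hold most of the coding differences, with differing bases in capitals. Noncoding parts of the transcripts were not compared.
Trbc1: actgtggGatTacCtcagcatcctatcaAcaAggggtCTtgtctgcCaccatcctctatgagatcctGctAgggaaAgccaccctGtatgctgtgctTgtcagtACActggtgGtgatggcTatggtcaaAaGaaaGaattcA
Trbc2: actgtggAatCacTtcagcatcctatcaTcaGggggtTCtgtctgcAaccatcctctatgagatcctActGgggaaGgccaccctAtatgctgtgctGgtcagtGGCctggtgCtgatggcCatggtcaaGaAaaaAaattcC
Of 369 windows of 150 bases in the coding sequence, 110 (29.8%) are the same in both genes, and the deposited counts of Trbc1 and Trbc2 were not whole numbers in 13 of 16 tumors each. Their split is therefore an estimate, and their sum is used for ratios.

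All 3 constant chains were higher in both responders than in any other tumor. Trac, the alpha constant chain on chromosome 14, was at 22.1 CPM in responder 15 and 20.2 CPM in responder 16. Non-responders lay between 1.05 and 3.63 CPM with a median of 1.73, and IgG tumors between 0.390 and 1.99 CPM with a median of 1.25. The groups of responders and others did not overlap, while non-responders and IgG tumors did. Against non-responders, Trac in responders had a log2 fold change of 3.44 (SE 0.43) and a Benjamini-Hochberg adjusted p of 1.88e-05 over 18251 genes, by edgeR's quasi-likelihood test. Trbc1 was at 16.8 and 15.2 CPM in the responders, at 0.851 to 2.99 CPM (median 1.63) in non-responders and at 0.602 to 3.42 CPM (median 0.953) in IgG tumors. Its highest control was IgG replicate 1, which carried the highest mitochondrial share. Trbc2 was at 32.3 and 28.6 CPM in the responders, at 1.80 to 2.75 CPM (median 2.19) in non-responders and at 0.759 to 2.55 CPM (median 1.08) in IgG tumors. The corresponding log2 fold change was 3.20 (SE 0.49) for Trbc1 and 3.78 (SE 0.35) for Trbc2, with adjusted p of 0.00017 and 8.78e-07 from the same edgeR test. Trbc1 took 34.2% of the summed beta chain counts in responder 15 (95% exact binomial interval 31.9% to 36.5%) and 34.8% in responder 16 (32.4% to 37.2%). Among the other 14 tumors this share ran from 27.2% in NR replicate 10 (18.9% to 36.8%) to 60.1% in IgG replicate 1 (51.7% to 67.9%), with NR replicate 9 next at 58.7% (50.8% to 66.2%). The intervals cover counting error only.

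The CD3 genes form a cluster on chromosome 9, in which Cd3g and Cd3d are read outward from starts 1355 bases apart. RefSeq promoters on GRCm38.p6 were found for 5 of the 10 genes, namely Cd3d, Cd3e, Cd3g, Cd247 and Cd8a. The 150 bases before each start are shown 5′ to 3′ on the gene's strand because these genes moved together, with E-boxes (CANNTG) in capitals.
Cd3d, chr9:44981636-44981785, plus strand: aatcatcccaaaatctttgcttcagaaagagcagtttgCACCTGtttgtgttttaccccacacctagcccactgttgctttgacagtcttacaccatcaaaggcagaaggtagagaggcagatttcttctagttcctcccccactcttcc
Cd3e, chr9:45009612-45009761, minus strand: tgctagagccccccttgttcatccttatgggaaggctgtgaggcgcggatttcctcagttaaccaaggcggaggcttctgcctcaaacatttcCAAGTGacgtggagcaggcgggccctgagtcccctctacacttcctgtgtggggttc
Cd3g, chr9:44980432-44980581, minus strand: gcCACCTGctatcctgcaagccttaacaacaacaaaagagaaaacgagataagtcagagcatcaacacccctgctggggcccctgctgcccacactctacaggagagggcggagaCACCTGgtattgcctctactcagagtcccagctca
Cd247, chr1:165788531-165788680, plus strand: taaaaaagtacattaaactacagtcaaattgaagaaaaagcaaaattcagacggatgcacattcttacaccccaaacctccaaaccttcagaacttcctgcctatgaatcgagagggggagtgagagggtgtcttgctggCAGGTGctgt
Cd8a, chr6:71373277-71373426, plus strand: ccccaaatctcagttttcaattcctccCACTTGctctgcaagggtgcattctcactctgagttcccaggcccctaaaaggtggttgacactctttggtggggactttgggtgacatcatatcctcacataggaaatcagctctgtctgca
An E-box, the letters bound by basic helix-loop-helix factors, was present in 5 of these 5 windows, against 47.7% of 32851 promoters of the same length. AGGAAG, an ETS-type core, was present on either strand in Cd247 and Cd3e only, against 19.7% of promoters. TGTGGT, a RUNX core, was in none of the 5 windows, against 8.4% of promoters. The TATA box, spelled TATAAA, was in none of them either, against 7.6% of promoters. Both strands were searched, no match overlapped another, and a match is only a description of these letters.

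Cd3d, Cd3e and Cd3g, which encode the delta, epsilon and gamma chains, were each higher in both responders than in any other tumor. Cd3d was at 23.3 CPM in responder 15 and 25.3 CPM in responder 16, at 1.52 to 4.29 CPM (median 1.94) in non-responders and at 0.540 to 2.96 CPM (median 1.28) in IgG tumors. Cd3e was at 14.1 and 14.3 CPM in the responders, at 0.677 to 2.10 CPM (median 0.957) in non-responders and at 0.253 to 1.63 CPM (median 0.756) in IgG tumors. The lowest Cd3e value rested on 9 counts, in IgG replicate 7, for which the exact 95% Poisson interval was 4.12 to 17.1 counts. Cd3g was at 30.6 and 27.9 CPM in the responders, at 2.13 to 6.28 CPM (median 3.41) in non-responders and at 1.29 to 4.96 CPM (median 1.55) in IgG tumors. For all 3 genes, NR replicate 11 was the highest non-responder and IgG replicate 8 the highest control, and the ranges of those groups overlapped. In responders against non-responders it came to a log2 fold change of 3.39 (SE 0.44) for Cd3d, 3.54 (SE 0.48) for Cd3e and 3.01 (SE 0.42) for Cd3g, with adjusted p of 3.39e-05, 4.56e-05 and 6.48e-05 by edgeR's quasi-likelihood test.

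Cd247, on chromosome 1 at 165788681 to 165877277, encodes the zeta chain that carries most of the signaling motifs of the complex. It was at 21.0 CPM in responder 15 and 21.8 CPM in responder 16. Non-responders lay between 0.745 and 2.43 CPM with a median of 1.83, and IgG tumors between 0.478 and 2.38 CPM with a median of 0.993. Both responders stood above all 14 other tumors, and non-responders and IgG tumors overlapped. In responders against non-responders, Cd247 had a log2 fold change of 3.66 (SE 0.43, adjusted p = 9.65e-06 by edgeR's quasi-likelihood test). Its counts were not whole in 15 of 16 tumors, and it shares a stretch on the same strand with Gm16565, which had at most 8.0 counts in a tumor.

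The coreceptor Cd8a was at 59.7 CPM in responder 15 and 59.2 CPM in responder 16, at 4.06 to 9.97 CPM (median 6.90) in non-responders and at 1.94 to 11.5 CPM (median 3.74) in IgG tumors. Cd8b1 lies 35933 bases from it on chromosome 6 and encodes the beta chain. It was at 26.6 and 29.5 CPM in the responders, at 1.37 to 3.69 CPM (median 2.06) in non-responders and at 0.390 to 3.41 CPM (median 1.08) in IgG tumors. IgG replicate 8 was the highest control for both genes and for Cd8a stood above every non-responder. Against IgG tumors, responders had log2 fold changes of 3.63 (SE 0.43) for Cd8a and 4.34 (SE 0.49) for Cd8b1, at adjusted p of 7.16e-06 and 4.38e-06 by edgeR's quasi-likelihood test.

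Cd4, the coreceptor of helper and regulatory T cells, was not used to set response status. It was at 44.8 CPM in responder 15 and 35.4 CPM in responder 16, whereas non-responders lay between 0.881 and 2.996 CPM (median 1.95) and IgG tumors between 0.684 and 2.22 CPM (median 1.46). Cd4 had the widest gap of the 10 genes: the lower responder stood 11.8 times above the highest non-responder, against 4.44 to 10.4 times for the other 9. Responders against IgG tumors gave Cd4 a log2 fold change of 4.72 (SE 0.33, adjusted p = 2.38e-08 by edgeR's quasi-likelihood test), the largest of the 10 genes in that comparison. The lowest Cd4 value was in IgG replicate 1, with 18 counts (exact 95% Poisson interval 10.7 to 28.4), although that tumor had the second highest Cd8a of the controls.

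**Figure D1:**
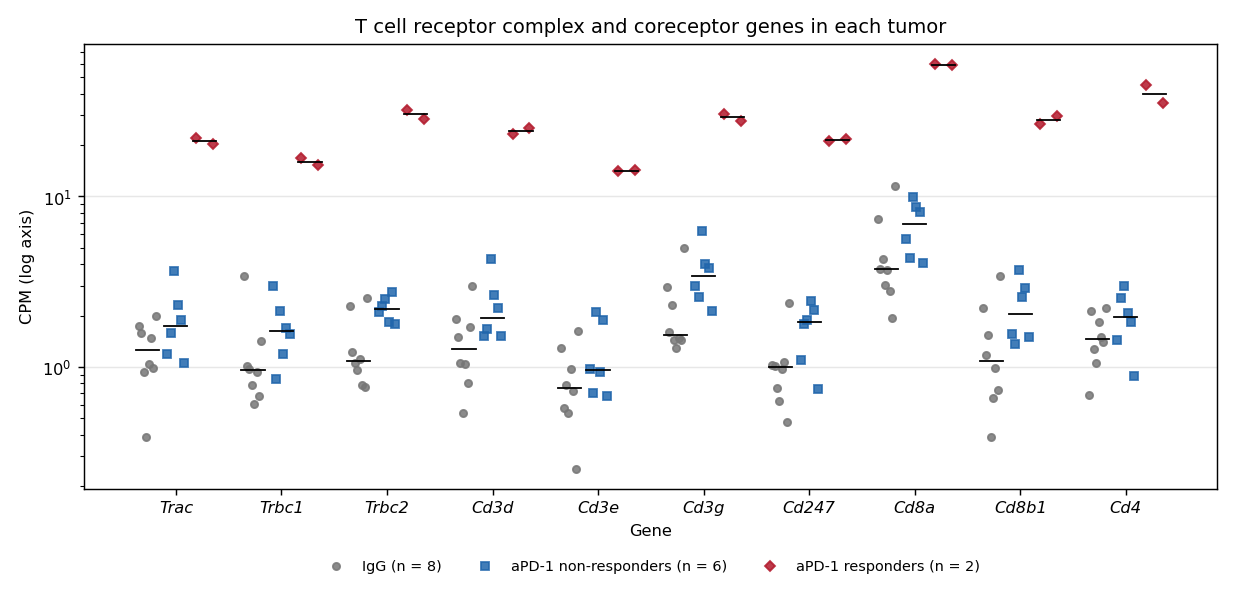
Each point is 1 tumor and gives its CPM (log axis) for the gene on the x axis, with IgG tumors in grey (n = 8), aPD-1 non-responders in blue (n = 6) and aPD-1 responders in red (n = 2); black lines are medians. For each of the 10 genes both responders lie above the other 14 tumors, which overlap between IgG and non-responders.

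Taking the 10 genes together, 10 of 10 were called higher in responders than in non-responders, where 12.5% of all 18251 genes tested were called higher. A call required an edgeR adjusted p under 0.05 together with a log2 fold change over 1. Both responders exceeded all non-responders for 10 of 10 genes, as they did for 21.5% of all genes. The log2 fold changes ran from 3.01 to 4.35 with a median of 3.49, against a median of 0.02 over all genes. Against IgG tumors, 10 of 10 were called higher (14.3% of all genes), with both responders above all controls for 10 of 10 (19.3% of all genes) and log2 fold changes of 3.63 to 4.72 with a median of 4.07. The same 2 responders enter both comparisons, and the spread is mostly that of the other tumors. Because responders were defined by CD8 staining, these counts are not independent of that definition. Summed over the 10 genes, responders were at 291.3 and 277.3 CPM, non-responders at 15.9 to 39.5 CPM and IgG tumors at 9.74 to 35.0 CPM.

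The 2 responders were close to each other in these genes. The ratio of responder 15 to responder 16 ran from 0.901 for Cd8b1 to 1.27 for Cd4, with Cd3e at 0.987, Cd247 at 0.966 and Cd8a at 1.01. The B cell genes of the same tumors summed to 1245 and 310.4 CPM. Genes of the CD8 lineage and cytotoxicity summed to 86.0 and 170.4 CPM, against 25.5 to 89.2 CPM elsewhere, a range that holds responder 15. Of the responders, replicate 15 was thus the higher for B cell genes and replicate 16 for cytotoxic genes. The part of lymph node or epithelial tissue in the levels of the receptor genes was not tested.

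No receptor or coreceptor gene was called between non-responders and IgG tumors, and in none of the 10 were all non-responders above all controls (0.0164% of all genes). In that comparison 0.0% of all genes were called by edgeR's quasi-likelihood test, and 694 genes had an unadjusted p under 0.05 (DESeq2 called 4 genes, 0.0219%, and none of the 10). The log2 fold change was above 0 for 10 of 10, against 48.7% of all genes, and ran from 0.37 for Cd4 to 0.74 for Cd3g with a median of 0.65. The 10 genes come from the same tumors and often the same cells and are not independent. Unadjusted p values under 0.05 were found for Trbc2 (log2 fold change 0.72, SE 0.26), Cd3g (0.74, SE 0.31) and Cd247 (0.69, SE 0.32), which is 3 of 10 against 3.8% of all genes, and the edgeR adjusted p was 0.987 for all 10. Without the 3 tumors of high mitochondrial share, an alternative chosen after seeing the data, 8 of 10 had an unadjusted p under 0.05 (8.39% of all genes), the log2 fold changes were 0.53 to 1.05, and the edgeR adjusted p was 0.304 to 0.642.

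In the randomized comparison of 8 aPD-1 with 8 IgG tumors, no receptor or coreceptor gene was called by edgeR, as was the case for 0.0% of all genes, and none had every aPD-1 tumor above every control (0.0164% of all genes). All 10 had an unadjusted p under 0.05, against 13.5% of all genes, with log2 fold changes from 2.06 for Cd8a to 2.92 for Cd4 and adjusted p between 0.152 and 0.178 by edgeR's quasi-likelihood test. DESeq2 called 7 of 10, at adjusted p of 0.0154 to 0.0433 for Cd247, Cd8b1, Cd3d, Cd3g, Trac, Cd3e and Cd8a, where it called 0.504% of all genes higher. For Cd4 and Trbc2 it replaced outlying counts, and their log2 fold changes fell to 0.34 and 0.66. With that replacement turned off, an alternative chosen after seeing the data, DESeq2 called 10 of 10 (2.22% of all genes higher), with Cd4 at 2.93 (adjusted p 0.011) and Trbc2 at 2.78 (adjusted p 0.00228). The size of these values rests on the responders: without responder 15 the edgeR log2 fold changes were 1.53 to 2.11 and without responder 16 they were 1.55 to 2.37, and the 6 non-responders alone gave the 0.37 to 0.74 above.

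**Figure D2:**
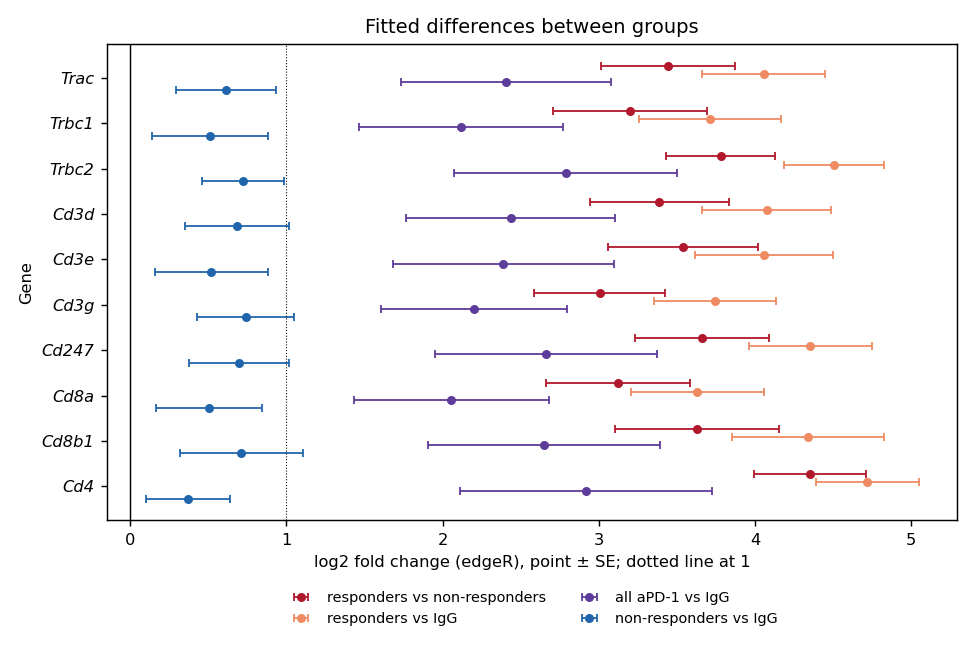
Points give the log2 fold change of each gene from edgeR with its SE (horizontal bars) for responders against non-responders, responders against IgG, all aPD-1 tumors against IgG, and non-responders against IgG. Values between non-responders and IgG tumors lie from 0.37 to 0.74, left of the dotted line at 1, and those of responders against non-responders from 3.01 to 4.35.

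Levels were compared between genes per length, as CPM per kilobase of the longest annotated transcript. IgG tumors and non-responders had the same order: Cd3g, Trbc2, Trbc1, Cd8a, Trac, Cd8b1, Cd3d, Cd3e, Cd4 and Cd247. In non-responders, Cd3g was at 3.55 ± 1.45 CPM per kilobase (SD, n = 6) and Cd247 at 0.569 ± 0.217, and the ranges of every pair of neighbours overlapped in both groups. In responders the order was Trbc2 at 44.0, Cd3g at 28.6, Trac at 22.6, Trbc1 at 21.7, Cd8a at 19.0, Cd8b1 at 18.9, Cd3d at 15.02, Cd4 at 12.9, Cd3e at 9.69 and Cd247 at 7.23 CPM per kilobase (means of 2). Neighbours in that order overlapped for Trac and Trbc1, for Cd8a and Cd8b1 and for Cd3d and Cd4. Compared with the other groups, Trbc2 stood above Cd3g in the responders, Trac above Trbc1 and Cd8a, and Cd4 above Cd3e. The order depends on the transcript length taken for each gene and, for Trbc1 and Trbc2, on their estimated split, and is a description.

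Ratios of counts within a tumor do not depend on library scaling and were used to ask whether CD4 and CD8 genes moved alike. The Cd4 to Cd8a ratio was 0.751 in responder 15 and 0.599 in responder 16. In non-responders it lay between 0.220 and 0.589 with a median of 0.249, the highest being NR replicate 10. IgG tumors spanned 0.0951 in replicate 1 to 0.727 in replicate 7, with a median of 0.417. Both responders were thus above all non-responders, responder 15 was just above the highest control and responder 16 was within the range of the controls. As a share of Cd4 and Cd8a counts together, Cd4 made up 42.9% in responder 15 (95% exact binomial interval 41.3% to 44.5%) and 37.4% in responder 16 (35.8% to 39.1%), whereas IgG replicate 1 was at 8.49% (5.11% to 13.1%). NR replicate 10 was at 37.0% (30.7% to 43.6%), an interval that holds the value of responder 16, so the separation from non-responders is within counting error there. The mean log2 ratio was 1.23 higher in responders than in non-responders, a 2.35-fold ratio, at p = 0.0357 in an exact two-sided permutation test, the smallest p that 2 against 6 tumors allow. Over the 21 tests of 7 ratios in 3 comparisons, the Benjamini-Hochberg adjusted exact p was 0.375. Against IgG tumors the difference was 0.95 (exact permutation p = 0.178), and between non-responders and IgG tumors it was -0.28 (exact permutation p = 0.535).

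With Cd8b1 in place of Cd8a the separation of responders was smaller. The Cd4 to Cd8b1 ratio was 1.69 and 1.201 in the responders, 0.596 to 1.86 (median 0.813) in non-responders and 0.316 to 2.75 (median 1.66) in IgG tumors, so that all 3 groups overlapped. The log2 difference between responders and non-responders was 0.72 (exact permutation p = 0.143, adjusted 0.6), that between responders and IgG tumors 0.17 (p = 0.867, same exact test), and that between non-responders and IgG tumors -0.54 (p = 0.284, same exact test). The 2 versions differ by the balance of the CD8 chains. The Cd8a to Cd8b1 ratio was 2.25 in responder 15 and 2.01 in responder 16, below every non-responder (2.70 to 3.60, median 2.97) and every IgG tumor (2.62 to 7.52, median 3.25). The lowest control ratio, in IgG replicate 7, rested on 69 Cd8a and 26 Cd8b1 counts, and the highest, in IgG replicate 4, on 101 and 13. No interval was computed for this ratio, so whether the separation exceeds counting error was not tested. The mean log2 ratio differed from that of non-responders by -0.52 (exact permutation p = 0.0357, adjusted 0.375), and from that of IgG tumors by -0.78 (exact permutation p = 0.0667, adjusted 0.467). The summed level of 8 dendritic cell genes, the class that also makes Cd8a, was 113.4 and 89.2 CPM in responders and 46.0 to 92.5 CPM elsewhere. Itgax had the highest level of the 8, at 55.5 and 41.0 CPM in responders and 31.1 to 77.6 CPM elsewhere, and was not called. Against non-responders, 6 of the 8 were called higher, among them Xcr1 (log2 fold change 2.12, SE 0.43) and Clec9a (1.79, SE 0.30). The part of dendritic cells in the ratio was not tested.

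Of the other 4 ratios, none separated the groups in all comparisons. Cd8a to Cd3e was 4.24 and 4.15 in the responders, below every non-responder (4.32 to 9.11) but within the IgG tumors (3.75 to 7.32), with a log2 difference from non-responders of -0.47 (exact permutation p = 0.143). Cd4 to Cd3e was 3.19 and 2.48 in the responders and 0.973 to 3.60 in non-responders (exact permutation p = 0.25). For the zeta and epsilon chains, Cd247 to Cd3e was 1.49 and 1.53 in responders, 0.891 to 2.57 in non-responders and 0.797 to 1.84 in IgG tumors, a log2 difference from non-responders of 0.09 (exact permutation p = 0.964). Trac to summed Trbc1 and Trbc2 was 0.452 and 0.461 in responders and 0.236 to 0.783 in non-responders, a log2 difference of -0.01 (exact permutation p = 0.964). The lowest adjusted p among the 21 tests was 0.375.

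**Figure D3:**
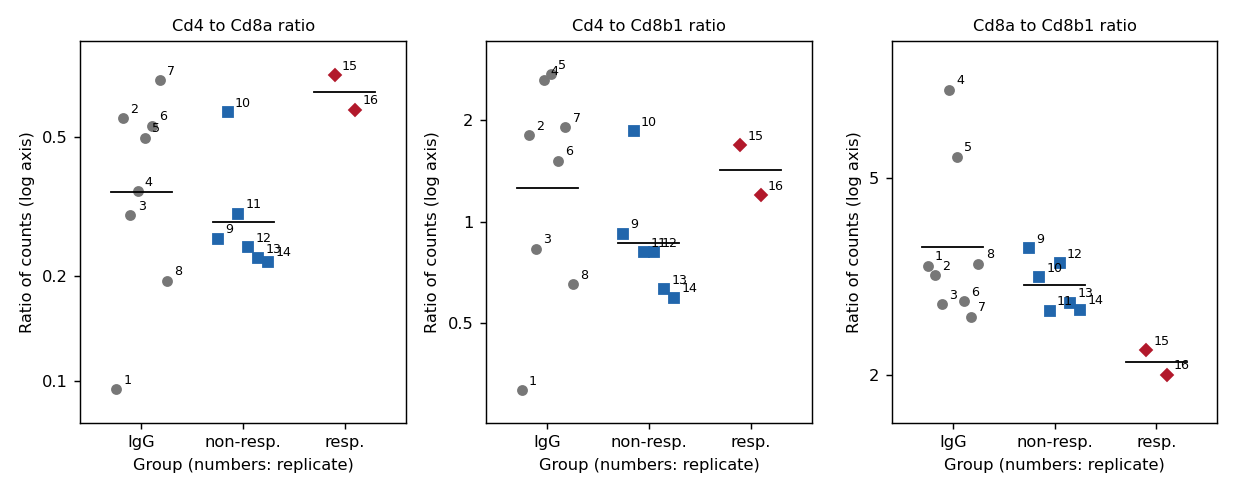
Ratios of counts (log axis) of Cd4 to Cd8a, Cd4 to Cd8b1 and Cd8a to Cd8b1 in each tumor, with replicate numbers beside the points and the geometric mean of each group as a line. Responders lie above all non-responders for Cd4 to Cd8a, overlap both other groups for Cd4 to Cd8b1, and lie below all other tumors for Cd8a to Cd8b1.

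Among the 14 tumors that were not responders, Cd8a varied with Cd8b1 and with Cd3e, while Cd4 followed none of them closely. Cd4 was not paired with Cd3d, Cd3g, Cd247 or the constant chains. Over these tumors 8 pairs of genes were correlated on log2 CPM, and adjusted p are from permutation tests with Benjamini-Hochberg adjustment over the 8 pairs. Cd8a and Cd8b1 had a Pearson r of 0.895 (adjusted permutation p = 0.00012) and a Spearman rho of 0.943 (adjusted 0.00016). For Cd3e and Cd8a, r was 0.895 (adjusted permutation p = 0.00012) and rho was 0.811 (adjusted 0.00277). Cd3e also followed Trbc2 with r = 0.776 (adjusted permutation p = 0.00168) and rho = 0.798 (adjusted 0.00277), and Cd247 with r = 0.756 (adjusted permutation p = 0.00298) and rho = 0.719 (adjusted 0.0096). Leaving out NR replicate 11 and IgG replicate 7, the tumors farthest from the Cd3e median, r was 0.83 with Cd8a, 0.686 with Trbc2 and 0.642 with Cd247, at adjusted permutation p of 0.00392, 0.0383 and 0.0393. The rho for Cd247 was then 0.615 and no longer passed (adjusted permutation p = 0.0607), while those for Cd8a and Trbc2 did, both at an adjusted permutation p of 0.0384. Without NR replicate 11 and IgG replicate 8, r of Cd8a and Cd8b1 was 0.843 (adjusted permutation p = 0.00392). For Cd3e and Trac, r was 0.654 (adjusted permutation p = 0.0197) and rho 0.675 (adjusted 0.0165), but without NR replicate 11 and IgG replicate 7 r was 0.572 (adjusted permutation p = 0.058) and did not pass.

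Cd4 had an r of 0.324 with Cd8a (rho 0.429, adjusted permutation p = 0.296 and 0.171), of 0.339 with Cd8b1 (rho 0.341, adjusted permutation p = 0.296 and 0.247) and of 0.299 with Cd3e (rho 0.332, adjusted permutation p = 0.299 and 0.247). These values depended on which tumors were included, and the part of mitochondrial share in them was not tested. Without IgG replicate 1 and NR replicate 14, which were farthest from the Cd4 median, r was 0.607 with Cd8a (adjusted permutation p = 0.0511) and 0.667 with Cd8b1 (adjusted permutation p = 0.0383). By rho they were 0.622 and 0.559 and neither passed (adjusted permutation p = 0.0607 and 0.0823). Without those tumors and NR replicate 9, an alternative chosen after seeing the data, r was 0.643 with Cd8a, 0.694 with Cd8b1 and 0.568 with Cd3e, at adjusted permutation p of 0.0396, 0.0308 and 0.0676, and rho was 0.691, 0.618 and 0.491, at adjusted permutation p of 0.0326, 0.054 and 0.13. Without NR replicate 11 and IgG replicate 7, r of Cd3e and Cd4 was 0.105. Within the 8 IgG tumors, r of Cd4 was 0.03 with Cd8a, 0.09 with Cd8b1 and 0.01 with Cd3e, and within the 6 non-responders it was 0.588, 0.534 and 0.495, with no exact permutation p under 0.05. For Cd8a and Cd8b1, r was 0.845 within IgG tumors (exact permutation p = 0.00821, adjusted 0.0256, with a rho of 0.81 at an adjusted 0.0581) and 0.955 within non-responders (exact permutation p = 0.0167, adjusted 0.133).

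**Figure D4:**
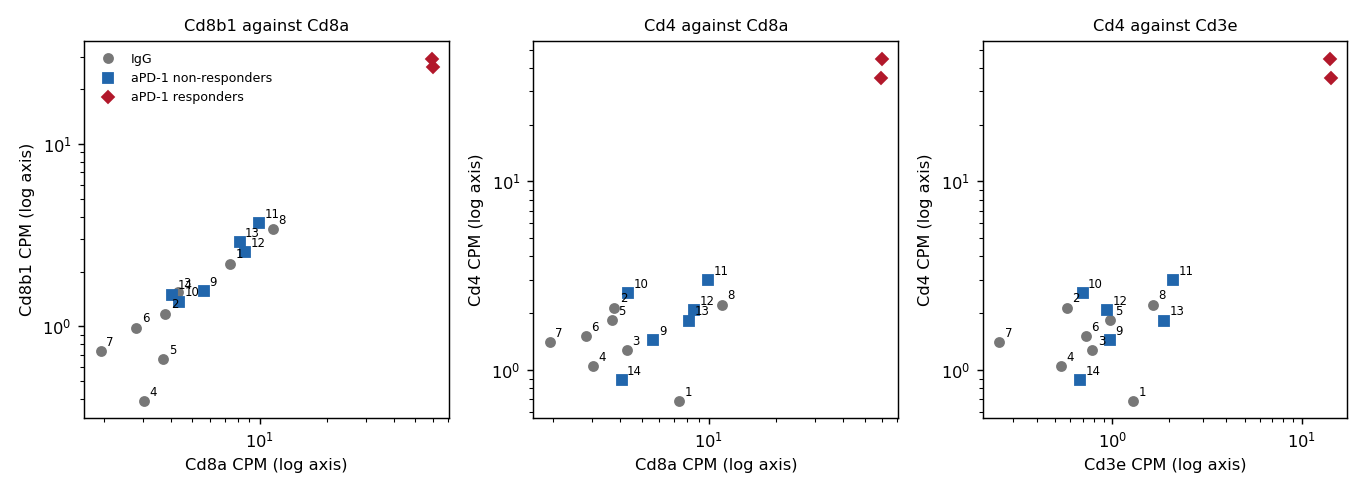
CPM of pairs of genes in each tumor (log axes), with IgG tumors in grey, aPD-1 non-responders in blue and aPD-1 responders in red and the replicate number beside each tumor that was not a responder. Cd8b1 follows Cd8a (r = 0.895 over 14 tumors), whereas Cd4 is spread around both Cd8a (r = 0.324) and Cd3e (r = 0.299), with IgG 1 lowest in Cd4.

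The genes most like these were sought among the 13195 genes that averaged 50 counts or more, by Pearson r of log2 CPM over the same 14 tumors, as a description only, since all points share libraries and scaling. The 10 genes closest to the mean of Cd3d, Cd3e and Cd3g were Lck (r = 0.941), the kinase that phosphorylates the CD3 chains, Il12rb1 (r = 0.938), H2-DMa, Calhm6, Slc31a2, Ltb, Nkg7, H2-Ab1, H2-T23 and Lat (r = 0.902), the adaptor downstream of Zap70. Closest to Cd8b1 were H2-DMa (r = 0.916), Il12rb1, Apol6, Slc31a2 and Batf2 (r = 0.897). Cd4 had other neighbours: the smooth muscle and myofibroblast genes Tagln (r = 0.93) and Acta2 (r = 0.93), Sfrp1 (r = 0.921), Gimap4 (r = 0.917) and the collagen gene Col12a1 (r = 0.908). Without the 3 tumors of high mitochondrial share, r with Cd4 was 0.859 for Tagln, 0.835 for Acta2, 0.815 for Sfrp1, 0.883 for Gimap4 and 0.795 for Col12a1. In the responders, which were not used for this choice, Lck and Lat rose with the CD3 genes (log2 fold changes against non-responders of 3.72, SE 0.28, and 4.18, SE 0.34, adjusted p = 1.12e-07 and 3.04e-07 by edgeR's quasi-likelihood test), and Gimap4 rose as well (3.02, SE 0.32, adjusted p = 3.73e-06 by the same test). Il12rb1 had a log2 fold change of -0.46 (SE 0.30, adjusted p = 0.33), Slc31a2 of -0.03 (SE 0.14, adjusted p = 0.924), Acta2 of 1.55 (SE 0.69, adjusted p = 0.136) and Tagln of 1.65 (SE 0.68, adjusted p = 0.106) in that edgeR test.

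Genes that act with the receptor were mostly higher in responders too. Of 20 genes of proximal receptor signaling, 17 were called higher between responders and non-responders and none lower (median log2 fold change 2.92, against 0.02 over all genes and beside 12.5% of all genes called higher). Those of smallest p were Lck, Lat and Rasgrp1, an activator of Ras (log2 fold change 2.74, SE 0.24, adjusted p = 5.12e-07 by edgeR's quasi-likelihood test). Zap70, which binds the phosphorylated CD3 and zeta chains, had 2.79 (SE 0.34, adjusted p = 1.41e-05 by the same test). The 3 not called were Fyn, at 0.67 with an edgeR adjusted p of 0.00287 but under the fold threshold, Fyb at 0.42 and Plcg1 at -0.01. Of 12 costimulatory and adhesion receptors, 11 were called higher (median 3.27), led by Slamf6 (3.30, SE 0.20), Cd6 (3.60, SE 0.28) and Cd27 (3.71, SE 0.36), at adjusted p of at most 1.69e-06 by edgeR's quasi-likelihood test. Tnfrsf9, an activation-induced receptor, was not called, at 0.22 (SE 0.42). Of 4 tested chains of the gamma delta receptor, Trdc, Tcrg-C4 and Tcrg-C1 were called higher, with their list at 3.90 and 4.08 CPM in responders and at most 0.937 CPM elsewhere. Ptcra of the pre-receptor had 0 counts in 11 tumors and was not tested.

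Genes of T cell subsets are given beside the 12.5% of all genes called higher, and no test compared the lists. Of 7 naive and recirculating T cell genes, 6 were called higher (median log2 fold change 1.81), with the homing receptor Ccr7 and the transcription factor Tcf7 among those of smallest p. Of 7 genes of CD4 lineage and regulatory T cells, 6 were called higher (median 1.37), led by Ikzf2, Cd40lg and Il2ra, with Foxp3, the factor that defines regulatory T cells, at 1.93 (SE 0.38, adjusted p = 0.00153 by edgeR's quasi-likelihood test). Of 8 CD8 lineage and cytotoxic genes, 4 were called higher (median 1.06), led by Crtam, Nkg7 and Gzmk. Gzmb and Prf1, the main granule proteins of killing, were not called, at 0.89 (SE 0.56) and 0.66 (SE 0.58), and the responders differed in both. Gzmb was at 20.6 CPM in responder 15 and 66.6 CPM in responder 16, against at most 34.3 CPM elsewhere, and Prf1 was at 9.64 and 21.5 CPM, against at most 15.5 CPM elsewhere. Responder 16 stood above all other tumors for both genes, and responder 15 lay within their range. Of 7 NK cell genes, 3 were called higher (median 1.32). The 3 of smallest p were Klra4, at -0.85 (SE 0.14) and under the fold threshold, Klrb1c and Gzma.

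Genes of antigen presenting and other cells were counted in the same way, and their part in the levels of the receptor genes was not tested. In responders against non-responders, 6 of 8 dendritic cell genes were called higher (median log2 fold change 1.95), led by Flt3, Siglech and Clec9a. Macrophage and monocyte genes had 2 of 8 called higher, Ly6c2 and Mrc1, and 6 not called, beside 12.5% of all genes called higher, with a median of 0.42 and Cd68 next by p. All 8 B cell genes were called higher (median 7.79, led by Cd79b, Pax5 and Cd79a), as were all 5 tested lymph node genes (median 7.23, led by Ccl19, Glycam1 and Ccl21a) and 4 of 6 tested epithelial genes (median 4.95, led by Krt8, Epcam and Krt19). Epithelial genes summed to 116.9 and 50.7 CPM in the responders and to 4.67 to 12.5 CPM elsewhere. In none of the 12 lists was a gene called lower in responders than in non-responders, and none of their genes was called between non-responders and IgG tumors by edgeR.

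**Figure D5:**
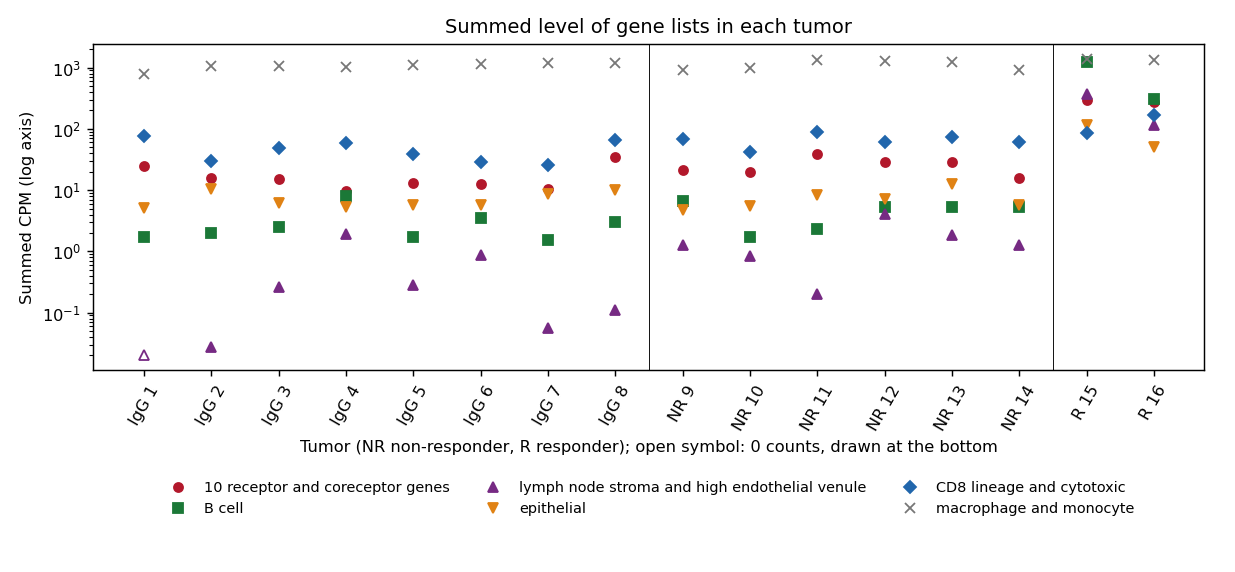
Summed CPM (log axis) of the 10 receptor and coreceptor genes and of 5 gene lists in each of the 16 tumors, with groups divided by vertical lines. The 10 genes are nearly level between the responders (291.3 and 277.3 CPM), whereas B cell (1245 and 310.4 CPM) and lymph node genes (375.7 and 115.8 CPM) differ between them; IgG 1 had 0 lymph node counts, drawn as an open symbol at the bottom.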

How the data were processed

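The authors aligned paired, strand-specific, poly(A)-enriched reads with STAR 2.6 to GRCm38 and deposited expected counts per gene estimated by RSEM 1.3.0, without normalization; 7.84% of the values were not whole. Whether the counting used strand is not given in the sources used here. The table holds 53465 genes and 92 spike-in entries (at most 185 counts per tumor), which were left out. Symbols, lengths and coordinates came from GENCODE M21, and promoters from RefSeq.

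Counts were rounded, scaled by TMM and tested in 1 fit of 16 tumors with edgeR 4.0.16 (robust quasi-likelihood test, R 4.3.3), after filterByExpr with the 3 groups left 18251 genes. A call needed a Benjamini-Hochberg adjusted p under 0.05 with a log2 fold change over 1 in either direction, as in the study. All aPD-1 tumors against IgG were fitted as 2 groups. Ratios used counts plus 0.5 on the log2 scale with exact two-sided permutation tests. Correlations used log2 CPM with a prior count of 2 and 100000 permutations, or all orders within a group. The edgeR test was also run in R on simulated counts, for responders against non-responders and for non-responders against IgG tumors. The outcome is not given here, and no simulation is reported for the other steps. Steps outside R used Python 3.11.15 with numpy 2.4.6, pandas 2.3.3, scipy 1.17.1 and matplotlib 3.10.9.

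The 10 genes and 12 marker lists were chosen with earlier results of these data known. Genes named beside the 10 were the 3 of smallest p per list between responders and non-responders, any gene called the other way, and those of highest correlation. Others in the lists (Zap70, Foxp3, Gzmb, Prf1, Tnfrsf9, Fyn, Fyb, Plcg1, Ptcra, Itgax, Xcr1, Cdh1, Krt18, Krt20, Cdx2 and Vil1) were named after their values were seen. CT010467.1 was named for its share of the counts in IgG replicate 3. Fdcsp was not found in the table. The result for a gene that this rule covers is not reported here. Alternatives were DESeq2 1.42.0, median-of-ratios size factors, other filters on low counts, a fit of only the groups compared, summed Trbc1 and Trbc2, other pseudocounts, unrounded counts, and leaving out each tumor. Alternatives added after seeing the data were leaving out 3 tumors of high mitochondrial share together, and DESeq2 without replacement of outlying counts. Each tumor came from another mouse. Total counts of 26603477 to 39948874 left as few as 9 counts for a gene of interest in a tumor.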

Additional observations from a re-analysis of the deposited data

Results flagged for a closer look

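Of 34 sets of values tested for a sample far from the rest of its group, 4 were marked. The rule marks about 1 set in 20 by chance where values are normally distributed. The sets share tumors and CPM was not log-transformed, so that rate is only a rough guide. Cd3g in IgG replicate 8 was at 4.96 CPM, with the next control at 2.93 CPM. In the same tumor Cd247 was at 2.38 CPM, with the next control at 1.06 CPM. That tumor had the highest value among controls for 9 of the 10 genes. Trbc1 was at 3.42 CPM in IgG replicate 1, with the next control at 1.41 CPM, and this tumor had the highest mitochondrial share, 7.60%. The log2 Cd4 to Cd8a ratio of NR replicate 10 was -0.76, with the next non-responder at -1.73. The causes were not tested.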

How the results depend on the processing

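For responders against non-responders and against IgG tumors, 10 of 10 genes were called with DESeq2, other size factors, other filters and only the groups compared, 9 of 9 with Trbc1 and Trbc2 summed, and 10 of 10 without each tumor in turn, with adjusted p of at most 0.00566; non-responders against IgG tumors gave 0 throughout. A fit without a responder assumes that the other varies like the remaining tumors. All aPD-1 against IgG tumors gave 0 of 10 with edgeR, 7 with DESeq2 and 10 with DESeq2 without replacement of outlying counts. Over all genes, 2407 were called between responders and non-responders and 967 without responder 15 (2730 and 1258 against IgG tumors); for all aPD-1 against IgG, DESeq2 called 93 genes, or 422 without replacement, and edgeR 0. Between non-responders and IgG tumors, edgeR called 2 genes without IgG replicate 1, and 1 gene without the 3 tumors of high mitochondrial share. Without IgG replicate 1, 17.8% of all genes had an unadjusted edgeR p under 0.05 in that comparison, against 3.8% with all tumors. That comparison therefore depended on 1 control tumor. Among correlations, Cd4 and Cd8b1 passed an adjusted p of 0.05 without the farthest tumors (r = 0.667, but rho 0.559 did not), and so did Cd4 with Cd8a (0.643) and Cd8b1 (0.694, but rho 0.618 did not) without the 3 tumors. Within the 6 non-responders, where few tumors limit the test, none passed: 0.955 for Cd8a and Cd8b1, and for Cd3e 0.843 with Cd8a, 0.73 with Trac, 0.773 with Trbc2 and 0.503 with Cd247. Cd3e and Trac also missed it in IgG tumors (0.516) and without the farthest tumors (0.572). No ratio passed the adjusted threshold under any setting run, but 2 responders allow no exact p below 0.0357 against non-responders or 0.0222 against IgG tumors. Leaving out each tumor in turn changed the sign of small log2 differences: Cd4 to Cd8b1, responders against IgG, ran from -0.11 to 0.42; between non-responders and IgG tumors, Cd4 to Cd3e ran from -0.45 to 0.019, Cd8a to Cd3e from -0.041 to 0.17 and Trac to Trbc from -0.30 to 0.06; between responders and non-responders, Cd247 to Cd3e ran from -0.047 to 0.26 and Trac to Trbc from -0.21 to 0.14. The causes were not tested. No paired analysis was possible because no replicate number is shared between groups.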
